A study of Mus musculus with 12 samples.

Results

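This account describes 10 genes that carry iron and calcium across the absorptive epithelium of the proximal small intestine: Cybrd1, Slc11a2, Slc40a1, Heph, Tfrc, Fth1 and Ftl1 for iron, and Trpv6, S100g and Atp2b1 for calcium. They were taken as a named set, matched by Ensembl identifier without its version to mouse symbols, and all 10 were found among the 48526 gene rows counted in each library. RNA came from whole intestinal epithelial cells of 4 female mice aged 3 months, isolated from the proximal part of the small intestine, so the material was not duodenum alone. The 2 DKO mice had KAT2A/KAT2B DKO, the loss of a pair of related lysine acetyltransferases, induced by daily tamoxifen at 100 mg/kg for 4 days, and were sampled 2 days later. The 2 control mice received the ethanol and corn oil vehicle without tamoxifen, so the genotype and the drug cannot be told apart. The promoter and cell type that drive the recombination are not given in the sources used here. Each animal gave 3 libraries, namely the input RNA and the RNA pulled down with the antibodies J2 and K1, both of which bind double-stranded RNA. Each of the 6 groups therefore holds 2 libraries.

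Dietary non-heme iron is reduced at the brush border by the cytochrome b reductase encoded by Cybrd1 and enters the enterocyte through the divalent metal transporter Slc11a2. It leaves across the basolateral membrane through ferroportin (Slc40a1), helped by the copper ferroxidase hephaestin (Heph), or is stored in ferritin, a shell of heavy (Fth1) and light (Ftl1) chains. Tfrc encodes the transferrin receptor, which brings iron in from the blood side and is prominent in dividing cells. Active calcium absorption uses the apical channel Trpv6, the cytosolic carrier calbindin-D9k (S100g) and the basolateral calcium pump Atp2b1, and the first pair are classical targets of the vitamin D receptor.

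Several of the iron transcripts carry an iron-responsive element, a short RNA hairpin with a bulged C and a CAGTGN loop. Iron regulatory proteins bind it when iron is scarce, blocking translation where the hairpin lies in the 5′ UTR and protecting the transcript from decay where it lies in the 3′ UTR. The hairpins are shown because most of the iron members held one and the calcium members were not found to hold one. Any part of these short hairpins in capture by J2 or K1 was not tested. The GENCODE M21 transcripts (GRCm38) were searched on the transcript strand for a C, 5 stem bases, the loop CAGTGN and 5 stem bases, with all 5 pairs of the stem formed, G with T included. Of 21901 protein-coding genes, 160 (0.73%) held a match in a UTR and 31 (0.142%) in the 5′ UTR. Among the 10 genes, 4 held one, with 7 distinct matches. Each is printed as 30 bases, 5′ to 3′ on the transcript strand, with the bulged C and the loop in capitals.
Fth1, 5′ UTR, chr19:9982731-9982760, plus strand: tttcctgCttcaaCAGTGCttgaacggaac
Ftl1, 5′ UTR, chr7:45459779-45459808, minus strand: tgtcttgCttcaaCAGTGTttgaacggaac
Slc40a1, 5′ UTR, chr1:45925465-45925494, minus strand: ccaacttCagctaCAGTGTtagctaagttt
Tfrc, 3′ UTR, chr16:32631218-32631247, plus strand: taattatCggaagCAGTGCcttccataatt
Tfrc, 3′ UTR, chr16:32631597-32631626, plus strand: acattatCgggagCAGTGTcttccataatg
Tfrc, 3′ UTR, chr16:32631662-32631691, plus strand: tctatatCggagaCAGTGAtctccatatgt
Tfrc, 3′ UTR, chr16:32631709-32631738, plus strand: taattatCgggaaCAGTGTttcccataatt

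The search was then relaxed to allow 1 unpaired base in the 3′ arm of the stem, which 284 genes (1.3%) met in a UTR. Slc11a2 was the only one of the 10 added, with its match in 1 annotated coding transcript. The counts are per gene and do not separate its transcripts. Epas1, which encodes the hypoxia-inducible factor HIF-2α and belongs to the list of iron regulators described below, also held such a hairpin.
Slc11a2, 3′ UTR, chr15:100395153-100395182, minus strand: gagccatCagagcCAGTGTgtttctatggt
Epas1, 5′ UTR, chr17:86753767-86753796, plus strand: gtacaatCctcggCAGTGTcctgagactgt
Cybrd1, Heph, Trpv6, S100g and Atp2b1 held no match under either search, which says only that these letters were not found in their annotated UTRs.

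All 10 genes are annotated as protein-coding in GENCODE M21 (GRCm38). The uptake genes lie apart, Cybrd1 at chr2:71117923-71142926 (plus strand) and Slc11a2 at chr15:100387898-100425072 (minus strand). The export genes are Slc40a1 at chr1:45908068-45926523 (minus strand) and Heph at chrX:96455359-96574485 (plus strand). The receptor and storage genes are Tfrc at chr16:32608920-32632794 (plus strand), Fth1 at chr19:9980598-9985098 (plus strand) and Ftl1 at chr7:45457944-45459884 (minus strand). The calcium genes are Trpv6 at chr6:41620624-41636405 (minus strand), S100g at chrX:162961992-162964599 (minus strand) and Atp2b1 at chr10:98914406-99026143 (plus strand).

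Gene-assigned counts per library ran from 10307281 to 11474107 in input, from 13308021 to 16139531 in the control pulldowns, and from 2220291 to 5826361 in the DKO pulldowns. Replicates correlated in log2 CPM at 0.984 to 0.99 in input and control pulldowns, while the DKO pairs reached 0.901 with J2 and 0.929 with K1. Reads aligned to several places were 5.5 to 6.6% of the listed reads in control pulldowns, 15.8% and 29.5% in the DKO J2 libraries and 25.9% and 46.7% in the DKO K1 libraries (replicates 1 and 2). Mitochondrial genes took 1.4 to 2.77% of the gene counts in control pulldowns and 8.76 to 18.63% in DKO pulldowns, beside 4.23 to 4.33% and 3.23 to 3.27% in input. The part of these differences in the pulldown results was not tested. The targeted genes were lower in DKO input: Kat2a fell 1.85-fold (adjusted p = 0.0205, edgeR) and Kat2b fell 2.85-fold (adjusted p = 6.32e-04), although the deleted exons are not given in the sources used here. Defining enterocyte markers were abundant in all 4 input libraries, with a summed level of 24277 to 25065 CPM in control and 24860.4 to 32539 CPM in DKO. The duodenal and jejunal factor Gata4 stood at 229 to 248 CPM, and ileal Fabp6 at no more than 10 counts. The 6 distal markers together were not absent, with a summed level of 357 to 712 CPM in control and 94.5 to 121 CPM in DKO input.

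In input RNA, 8 of the 10 genes differed between DKO and control, 7 being lower and 1 higher. The calcium genes Trpv6 and S100g fell furthest, the storage and uptake genes Fth1 and Tfrc came next, and hephaestin was the gene that rose. The test was edgeR's quasi-likelihood test with Benjamini-Hochberg adjustment over the 15088 genes tested, and a gene is called at an adjusted p under 0.05. In the same fit 35.9% of all genes were called, 18.8% higher and 17.1% lower, so the genome-wide background of calls was high. The median log2 fold change of the 10 genes was -0.77, beside 0.00 for all genes tested. The 10 genes were chosen with earlier results of these data known, so this contrast is descriptive and not a test. The levels of the DKO and control libraries did not overlap for 9 of the 10, against 73.2% of all genes: DKO was lower for 8 (36.8% of all genes) and higher for 1 (36.4%). Since the RNA is from bulk cells, fewer cells of a type and less RNA per cell cannot be told apart.

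**Figure D1:**
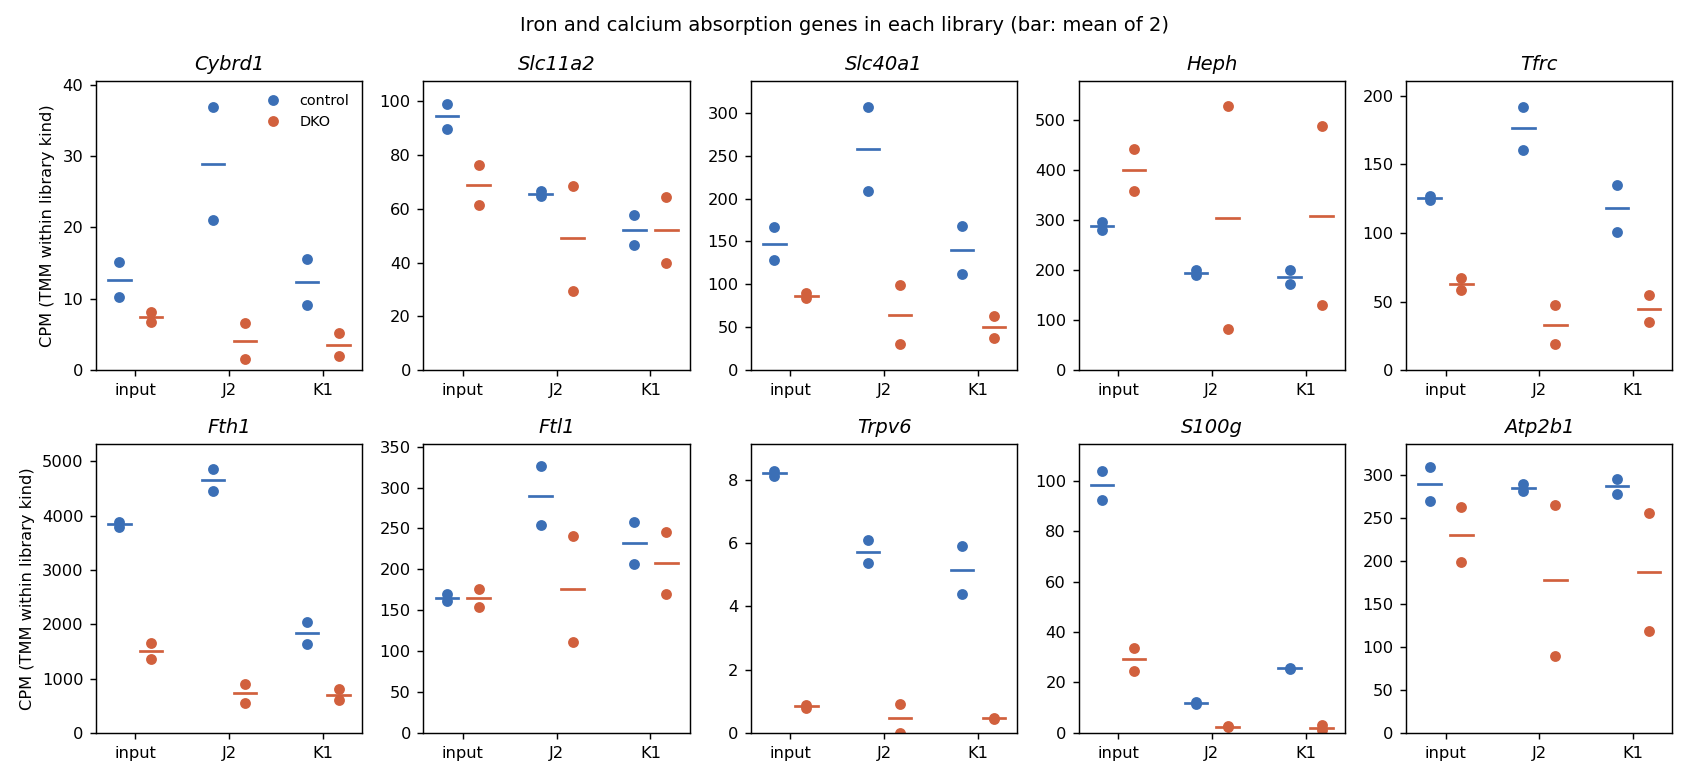
Level of each of the 10 genes in each of the 12 libraries, in CPM scaled within a kind of library (vertical axis, linear from 0), for input, J2 and K1 (horizontal axis). Each point is 1 library, blue for control and orange for DKO, and the bar is the mean of 2. In input the DKO points lie under the control points for 8 genes, above them for Heph and among them for Ftl1.

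The apical iron uptake genes were modestly lower in DKO input. Cybrd1 was measured at 10.2 and 15.2 CPM in the control libraries and at 8.14 and 6.69 CPM in DKO, where CPM is the gene's count relative to the TMM-scaled library total. The control pair spread by more than the distance from its lower value to the DKO pair. The fold change was 1.71 downward (log2 -0.78 ± 0.25 SE, adjusted p = 0.0473, edgeR). Slc11a2 was at 89.8 and 99 CPM in control and at 76.4 and 61.6 CPM in DKO, a fall of 1.37-fold (adjusted p = 0.0419, edgeR). Neither gene's libraries overlapped between the groups, but both calls stood near the threshold. With DESeq2 the adjusted p was 0.075 for Cybrd1 and 0.0773 for Slc11a2. Cybrd1 was no longer called without control replicate 2 (adjusted p = 0.382, log2 -0.47), DKO replicate 1 (0.0548) or DKO replicate 2 (0.118). Slc11a2 was no longer called without control replicate 1 (0.0651), control replicate 2 (0.206) or DKO replicate 2 (0.0861). Of the exon bases of Slc11a2, 6.3% overlap Gm5475 on the other strand, and the counts were made without strand.

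The export genes moved in opposite directions. Ferroportin (Slc40a1) stood at 167 and 128 CPM in control and at 83.8 and 90.2 CPM in DKO, so both DKO values lay under both control values. It fell 1.69-fold (log2 -0.76 ± 0.15 SE, adjusted p = 0.00812, edgeR), and stayed called in each leave-one-out fit. Its partner hephaestin (Heph) was at 296 and 280.4 CPM in control and at 442 and 358 CPM in DKO, a rise of 1.39-fold (log2 0.47 ± 0.15 SE, adjusted p = 0.0401, edgeR). Heph was higher in both DKO libraries than in either control, but the call was lost without control replicate 1 (adjusted p = 0.16), control replicate 2 (0.262) or DKO replicate 1 (0.0664), and without TMM scaling (0.0547).

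The transferrin receptor and the ferritin heavy chain fell clearly. Tfrc was at 124 and 127 CPM in control and at 67.3 and 58.5 CPM in DKO, tight pairs that lay far apart relative to their spread. Its fold change was 1.99 downward (log2 -0.99 ± 0.13 SE, adjusted p = 0.00111, edgeR). Tfrc is abundant in dividing cells, and the list of crypt and proliferation markers was lower in the same libraries: 7 of its 8 genes fell and Pcna was not called, with a median log2 fold change of -1.72. Their summed level was at least 454 CPM in control and at most 188 CPM in DKO. The part of these cells in the Tfrc result was not tested.

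Fth1 was the most abundant of the 10 genes, at 3796 and 3886 CPM in control and 1656 and 1368 CPM in DKO. It fell 2.54-fold (log2 -1.34 ± 0.18 SE, adjusted p = 0.0014, edgeR). The other ferritin chain did not follow it. Ftl1 read 161 and 169.5 CPM in control against 176 and 154 CPM in DKO, with the DKO libraries on either side of the control libraries (log2 0.00 ± 0.13 SE, adjusted p = 0.999, edgeR). The sign of this value near 0 changed with the scaling.

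The Ftl1 count is uncertain, because its whole longest transcript is covered at 97% identity or more by copies in 9 other annotated genes, Ftl1-ps1 and Ftl1-ps2 among them, and 34.6% of its exon bases overlap other annotated genes. Summed over Ftl1, Ftl1-ps1, Ftl1-ps2 and Ftl2-ps, the level was 165 and 174 CPM in control and 179.9 and 158 CPM in DKO, again overlapping. The rest of the 9 genes with copies were left out of this sum. Reads shared by copies may also have been left out as aligned to several places. Fth1 had no such copy among the annotated transcripts.

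Among the calcium genes, the channel and the carrier fell and the pump did not pass the test. Trpv6 was counted 88 and 99 times in the control libraries and 9 times in each DKO library, or 8.13 and 8.29 CPM against 0.894 and 0.792 CPM. Replicates of each group were nearly equal, and the gene fell 9.66-fold (log2 -3.27 ± 0.29 SE, adjusted p = 3.02e-04, edgeR), the largest change of the 10. S100g was at 92.5 and 104 CPM in control and at 33.8 and 24.5 CPM in DKO. It fell 3.38-fold (log2 -1.76 ± 0.17 SE, adjusted p = 4.15e-04, edgeR). Atp2b1 was at 309 and 269.8 CPM in control and at 262 and 198 CPM in DKO, so that its lower control value lay just above its higher DKO value (log2 -0.33 ± 0.17 SE, adjusted p = 0.157, edgeR). Without TMM scaling Atp2b1 was called (log2 -0.48, adjusted p = 0.0282), as it was without DKO replicate 1 (log2 -0.54, adjusted p = 0.0228). The falls of Slc40a1, Tfrc, Fth1, Trpv6 and S100g were called in every alternative fit of the input libraries that was run.

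Levels can be compared between genes only per length of exon. The length used joins all annotated exons of a gene. It exceeds the longest coding transcript for Slc40a1 (9000 against 3370 bases), Atp2b1 (15218 against 7130) and Fth1 (3469 against 1494), among others. The order can therefore change with the length used, and the Ftl1 count is uncertain, as said above. In CPM per kilobase of joined exons, the control input ran from Fth1 at 1107 ± 18.3 (SD, n = 2) through S100g at 205 ± 17.1, Ftl1 at 123 ± 4.69 and Heph at 37.6 ± 1.47. Tfrc at 20.3 ± 0.331, Atp2b1 at 19 ± 1.84, Slc40a1 at 16.4 ± 3.07 and Slc11a2 at 14.9 ± 1.02 followed, and each neighbouring pair of these 4 overlapped between libraries. Cybrd1 at 2.37 ± 0.66 and Trpv6 at 2.09 ± 0.0277 were lowest and also overlapped. In DKO Ftl1 at 123 ± 12 lay above S100g at 60.7 ± 13.7, which now overlapped Heph at 52.2 ± 7.73. Slc11a2 at 10.9 ± 1.64, Tfrc at 10.2 ± 1.01 and Slc40a1 at 9.67 ± 0.5 stood together under Atp2b1 at 15.1 ± 2.94, and Trpv6 at 0.214 ± 0.0183 was separated from Cybrd1 at 1.39 ± 0.193. Because Fth1 fell and Ftl1 did not, Fth1 remained the highest in DKO at 436 ± 58.7 but stood closer to Ftl1.

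**Figure D2:**
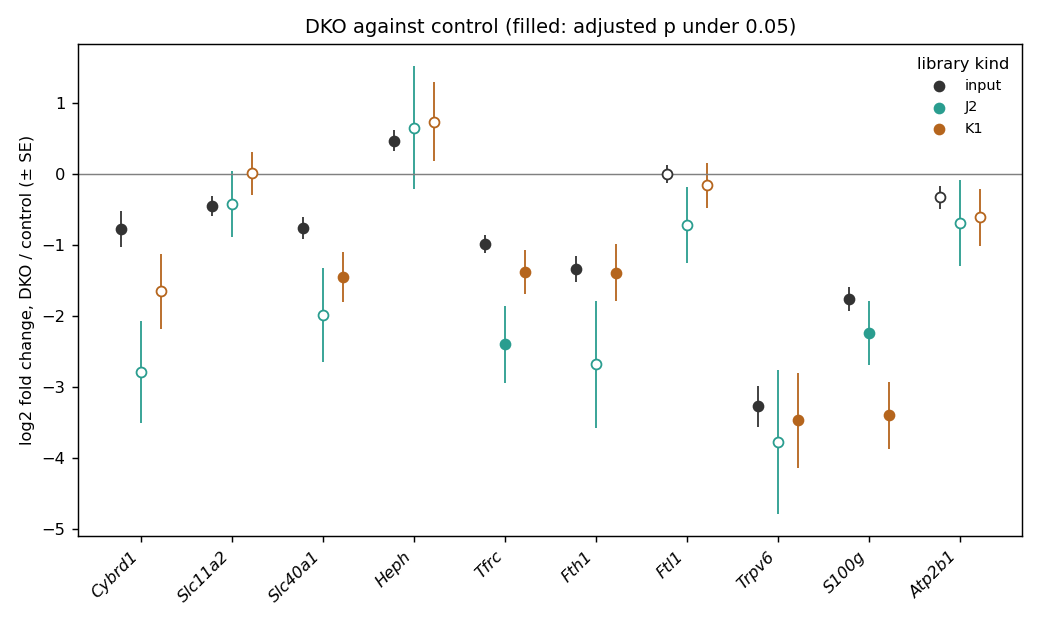
Log2 fold change of DKO over control (vertical axis) for each of the 10 genes (horizontal axis) in input, J2 and K1 libraries, with bars of 1 SE. Filled points have an adjusted p under 0.05. Trpv6 and S100g show the lowest input values, at -3.27 and -1.76, and the bars are longest in J2 for every gene but S100g, whose bar is slightly longer in K1.

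Other genes that regulate iron sensing changed in both directions in input. Of 12 genes in this list 11 were tested, 2 rose, 3 fell and 6 were not called, with a median log2 fold change of -0.16. The share called over all genes in this fit, 35.9% (18.8% higher and 17.1% lower), is the background for each list that follows too. Aco1, which encodes iron regulatory protein 1, the hairpin-binding protein that doubles as a cytosolic aconitase, was at 241 and 301 CPM in control and at 113 and 101 CPM in DKO. It fell 2.54-fold (adjusted p = 7.25e-04, edgeR). Its counterpart Ireb2 was at 125 and 133 CPM in control and 107 and 97.2 CPM in DKO (adjusted p = 0.0686), a gene named here after its values were seen. Epas1, whose hairpin is printed above and whose product drives transcription of apical iron uptake genes in the gut, rose by 0.59 on the log2 scale (adjusted p = 0.0206), and its dimer partner Arnt rose 1.29-fold (adjusted p = 0.0371). The iron chaperone Pcbp1 fell 1.32-fold (adjusted p = 0.0317), and Fbxl5, an iron-sensing subunit of the ligase that degrades iron regulatory proteins, fell 1.31-fold (adjusted p = 0.0484).

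Among the genes named from the lists, those of iron and heme carriers held the largest changes. Hamp, Lcn2 and Hmox1 met the count minimum for naming only through DKO. Their control input counts summed to 1, 36 and 23, so their fold sizes rest on low control counts. Of its 19 genes 15 were tested, 7 rose, 5 fell and 3 were not called, with a median log2 fold change of 0.56. Hamp encodes hepcidin, the peptide hormone that binds ferroportin and has it degraded. It was counted 0 and 1 times in the control input libraries and 300 and 77 times in DKO, a ratio of 400.3 at equal depth with an exact 95% counting interval of 71.4 to 15854. The DKO libraries differed from each other by several fold, and both were far above control. Lcn2, whose product binds bacterial siderophores that carry iron, rose from 2.59 and 0.67 CPM to 98.9 and 48.5 CPM, 45.9-fold (adjusted p = 3.64e-04, edgeR). Hmox1, the inducible heme oxygenase that frees iron from heme, rose from 1.29 and 0.754 CPM to 40.5 and 25.9 CPM, 32.4-fold (adjusted p = 1.33e-04, edgeR). In contrast the ferrireductase Steap3 fell from 12 and 9.96 CPM to 0.894 and 1.58 CPM, 8.69-fold (adjusted p = 4.66e-04, edgeR). Steap2, of the same family, fell 2.55-fold (adjusted p = 0.00358), and the mitochondrial iron importer Slc25a37 fell 2.33-fold (adjusted p = 8.59e-04).

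Because red blood cells and macrophages also handle heme and iron, their markers were read in the same input libraries. Of 7 erythroid markers only Alas2 was tested and it was not called, and the summed level was 1.76 to 2.22 CPM in control and 2.38 to 4.77 CPM in DKO. Hba-a2 was at 0 in all 4. Of 7 macrophage markers the 2 tested, Cd68 and Csf1r, rose, and the summed level was 3.24 to 3.43 CPM in control and 6.16 to 12.8 CPM in DKO, with Adgre1 and Cd163 at 5 counts or fewer and Cd163 at 0 in both controls. The part of macrophage RNA in the changes of Hmox1, Lcn2, Hamp, Slc40a1 and Fth1 was not tested.

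The vitamin D list had falls and no rises among its called genes. Of its 11 genes 9 were tested, 0 rose, 5 fell and 4 were not called, with a median log2 fold change of -0.40. The receptor Vdr was at 697 and 682 CPM in control and at 159 and 205 CPM in DKO, a fall of 3.78-fold (adjusted p = 2.58e-04, edgeR). Its partner Rxra fell 2.19-fold (adjusted p = 5.63e-04). Cyp3a11, a drug- and sterol-metabolizing cytochrome that vitamin D can induce, fell 5.48-fold, from 631 and 1054 CPM to 187 and 121 CPM (adjusted p = 9.35e-04). The vitamin D 24-hydroxylase Cyp24a1 had no more than 1 count in any input library and was not tested. Vdr, Rxra, Trpv6 and S100g were each lower in both DKO libraries than in either control, as were 36.8% of all genes tested. The part of Vdr in the falls of Trpv6 and S100g was not tested.

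Other calcium-handling genes showed 6 rises and 2 falls among 18 tested of 22, 10 not being called, with a median log2 fold change of 0.20. Over all genes of this fit 35.9% were called, 18.8% higher and 17.1% lower. The channel kinase Trpm6, best known for magnesium uptake, rose 5.71-fold (adjusted p = 5.13e-04, edgeR), from 2.87 and 2.93 CPM to 19.7 and 13.6 CPM. The pore-forming claudin Cldn2 rose 4.71-fold (adjusted p = 8.20e-05), while Cldn15, another pore-forming claudin of the gut, fell 2.57-fold (adjusted p = 7.69e-04). S100a10, an annexin partner, rose 2.44-fold (adjusted p = 6.19e-04), and the calmodulin gene Calm3 fell 1.41-fold (adjusted p = 0.0218).

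**Figure D3:**
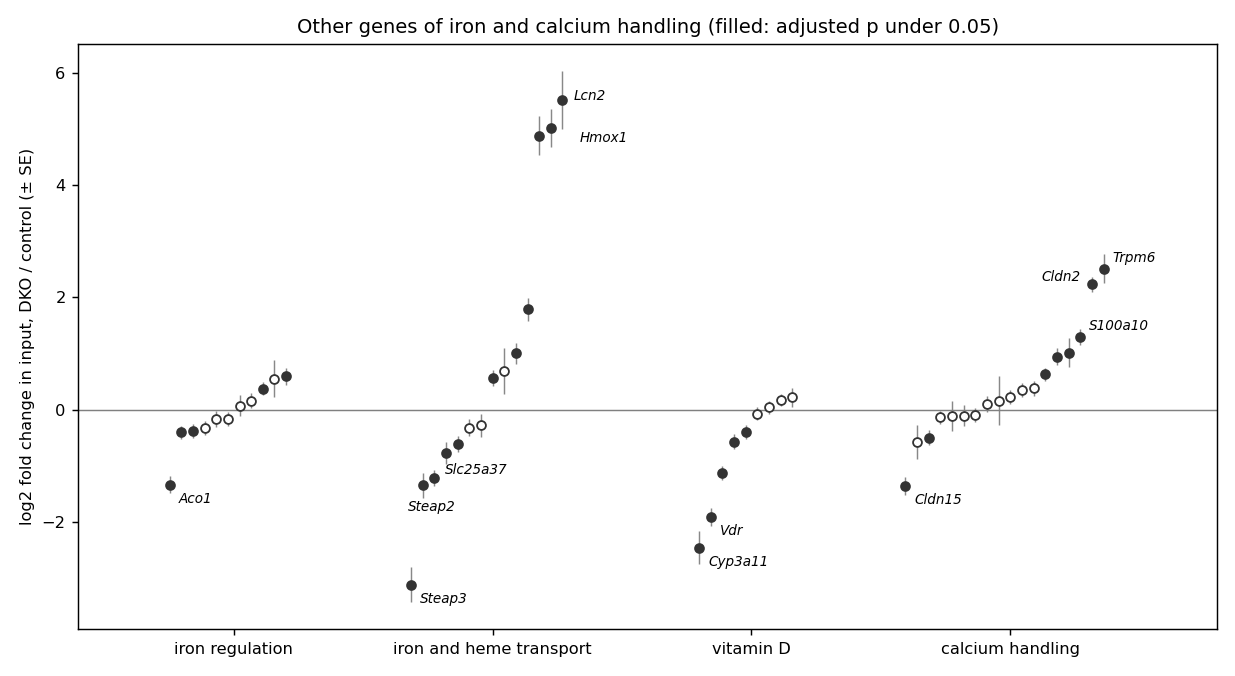
Log2 fold change of DKO over control in input (vertical axis, bars of 1 SE) for the tested genes of 4 lists (horizontal axis), each point being 1 gene. Filled points have an adjusted p under 0.05. Hamp is left out because its control libraries held 0 and 1 counts. The called vitamin D genes all lie under 0, whereas the iron and heme list runs from Steap3 at -3.12 to Lcn2 at 5.52.

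Regional and villus markers were compared because absorption genes vary along the gut and the villus. Of 6 proximal markers only the lactase gene Lct was called, falling from 2564 and 3564 CPM to 71.2 and 83.1 CPM (39.7-fold, adjusted p = 5.32e-05, edgeR), and the summed level was 6721 to 9228 CPM in control and 3981 to 5967 CPM in DKO. Of 6 distal markers 5 were tested, 2 rose and 2 fell, and the summed level was 357 to 712 CPM in control and 94.5 to 121 CPM in DKO. Of 6 enterocyte markers Sis alone was called (2.57-fold lower), and of 6 villus-tip markers 2 rose and 0 fell. The 5 stromal markers summed to 7.12 to 11.9 CPM in control input and 9.33 to 11.5 CPM in DKO, and the 5 leukocyte markers to 56.4 to 66.7 CPM and 38.2 to 40.2 CPM. The part of a shift along the gut or the villus in the 10 genes' values was not tested.

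In the pulldown libraries, levels combine abundance and capture by the antibody. Within J2 libraries, 2 of the 10 genes were lower in DKO, 0 were higher and 8 were not called, against 12.2% of all 13181 genes called (6.02% higher, 6.16% lower). The DKO levels lay under both controls for 8 of the 10, against 35.5% of all genes. Tfrc stood at 192 and 160.3 CPM in control and at 47.5 and 19.1 CPM in DKO (log2 -2.40 ± 0.54 SE, adjusted p = 0.0478, edgeR). S100g stood at 11.6 and 12.2 CPM in control and at 2.26 and 2.78 CPM in DKO (log2 -2.24 ± 0.45 SE, adjusted p = 0.0403), a value that rests on 10 and 9 counts in DKO. The DKO values of both genes lay far under control, but neither was called without control replicate 1 or control replicate 2. Those fits took their spread from the DKO pair alone. The log2 values there were -2.31 and -2.57 for Tfrc and -2.34 and -2.26 for S100g. S100g was also not called without TMM scaling (adjusted p = 0.0752, edgeR). Cybrd1, at 21 and 36.8 CPM in control J2 and 6.56 and 1.54 CPM in DKO J2 (29 and 5 counts), had a log2 fold change of -2.79 without passing the test (adjusted p = 0.0605). Slc40a1, at 307 and 209 CPM against 99 and 30.3 CPM, had -1.99 (0.0982). Fth1, at 4460.2 and 4854 CPM against 897 and 555 CPM, had -2.68 (0.0984), and Trpv6, with 86 and 84 counts against 0 and 3, had -3.77 (0.0654). In all 4 genes both DKO libraries lay under both controls.

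Heph showed how far the DKO J2 libraries diverged. It read 189.8 and 201 CPM in control J2 and 529 and 81.8 CPM in DKO J2, so that the DKO libraries lay on both sides of control. Its fold change was log2 0.65 ± 0.87 SE (adjusted p = 0.621). Without DKO replicate 1 the Heph value turned to log2 -1.32, and without DKO replicate 2 it was log2 1.52, so that single libraries set the direction. Each of these fits held 1 DKO library and took its spread from the control pair alone. Over the 10 genes, the number called in J2 ranged from 0 without either control replicate to 10 without DKO replicate 1 and 7 without DKO replicate 2. The calls over all genes moved the same way, from 1606 to 177 and 225 without control replicate 1 or 2, and to 8635 and 7726 without DKO replicate 1 or 2.

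Within K1 libraries 5 of the 10 genes were lower in DKO and 0 were higher, against 27.1% of all 12888 genes called (13.2% higher, 13.9% lower). The DKO levels lay under both controls for 7 of the 10, against 36% of all genes. Slc40a1 fell from 168 and 112 CPM to 63.7 and 37.8 CPM (log2 -1.45 ± 0.35 SE, adjusted p = 0.023, edgeR). Tfrc fell from 135 and 101 CPM to 54.5 and 35 CPM (log2 -1.38 ± 0.31 SE, adjusted p = 0.0186). Fth1 fell from 1634 and 2034 CPM to 799.8 and 602 CPM (log2 -1.39 ± 0.40 SE, adjusted p = 0.0406). Ftl1 was at 206 and 258 CPM in control and 246 and 169.6 CPM in DKO (adjusted p = 0.744). Slc11a2 was at 46.7 and 57.6 CPM in control and 64.6 and 39.8 CPM in DKO (log2 0.01 ± 0.31 SE, adjusted p = 0.978).

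Of the calcium genes, S100g and Trpv6 fell in K1 and Atp2b1 was not called (log2 -0.61 ± 0.40 SE, adjusted p = 0.291). S100g fell from 25.4 and 25.9 CPM to 3.29 and 0.958 CPM (log2 -3.40 ± 0.47 SE, adjusted p = 0.00437, edgeR), with 15 and 2 counts in the DKO libraries. Trpv6 was counted 81 and 93 times in control K1 and 2 and 1 times in DKO (adjusted p = 0.0114). At equal depth this was a ratio of control over DKO of 11.2, with an exact 95% counting interval of 3.79 to 55.1. In J2 the counts were 86 and 84 against 0 and 3, a ratio of 14.6 with an interval of 4.9 to 71.3. Both intervals cover counting error only. Heph again split the DKO libraries, at 489 and 130.3 CPM against 172 and 200.3 CPM in control.

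Some K1 calls did not hold in fits without a control replicate, which took their spread from the DKO pair alone. Calls over all genes fell in these fits as well. Fth1 and Trpv6 were lost without either control replicate, and Slc40a1 and Tfrc without control replicate 1. Without control replicate 1, Slc40a1, Tfrc, Fth1 and Trpv6 had log2 values of -1.16, -1.19, -1.56 and -3.68. Without control replicate 2 they had -1.74, -1.61, -1.25 and -3.25. S100g in K1 was called in every fit run. Stromal and macrophage markers had higher summed levels in the DKO pulldowns: the 5 stromal genes summed to 9.85 to 21.2 CPM in control J2 and 38.9 to 147 CPM in DKO J2, and to 8.65 to 35 CPM and 98.2 to 173 CPM in K1. The 7 macrophage genes summed to 1.81 to 2.76 CPM and 10.5 to 20.1 CPM in J2, and to 2.11 to 2.99 CPM and 16.8 to 27.2 CPM in K1. In J2, 0 of the 4 stromal genes tested and 0 of the 1 macrophage gene tested were called, against 6.02% of all genes called higher. In K1, 2 of 4 stromal and 4 of 4 macrophage genes tested were called higher, against 13.2% of all genes. The part of these markers in the pulldown results was not tested.

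Enrichment, the level in a pulldown over input, was tested within each genotype in fits of 8 libraries. These main fits took a shared estimate of the spread over both genotypes and did not use the pairing of libraries by animal. The J2 and K1 comparisons share the input libraries and are given side by side only. S100g was depleted by both antibodies in both genotypes. The control animals had log2 CPM differences of J2 minus input of -2.62 and -2.70, and the DKO animals of -3.36 and -2.77. With K1 the control animals had -1.52 and -1.65, and the DKO animals -3.01 and -4.32. All 8 values were negative. The fitted log2 enrichments were -2.68 ± 0.25 SE (adjusted p = 0.00188) for J2 in control, -3.17 ± 0.30 (adjusted p = 0.00158) for J2 in DKO, -1.59 ± 0.26 (adjusted p = 0.00115) for K1 in control and -3.32 ± 0.38 (adjusted p = 3.14e-04) for K1 in DKO, all from edgeR. The 2 control calls were lost without control replicate 1 (log2 -2.70 for J2 and -1.65 for K1) or control replicate 2 (-2.61 and -1.51), at nearly the same log2 values. Those fits took their spread from the DKO libraries alone. Calls over all genes fell in them as well, so the loss is not particular to S100g. S100g has the shortest exon length of the 10 genes, 480 bases.

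**Figure D4:**
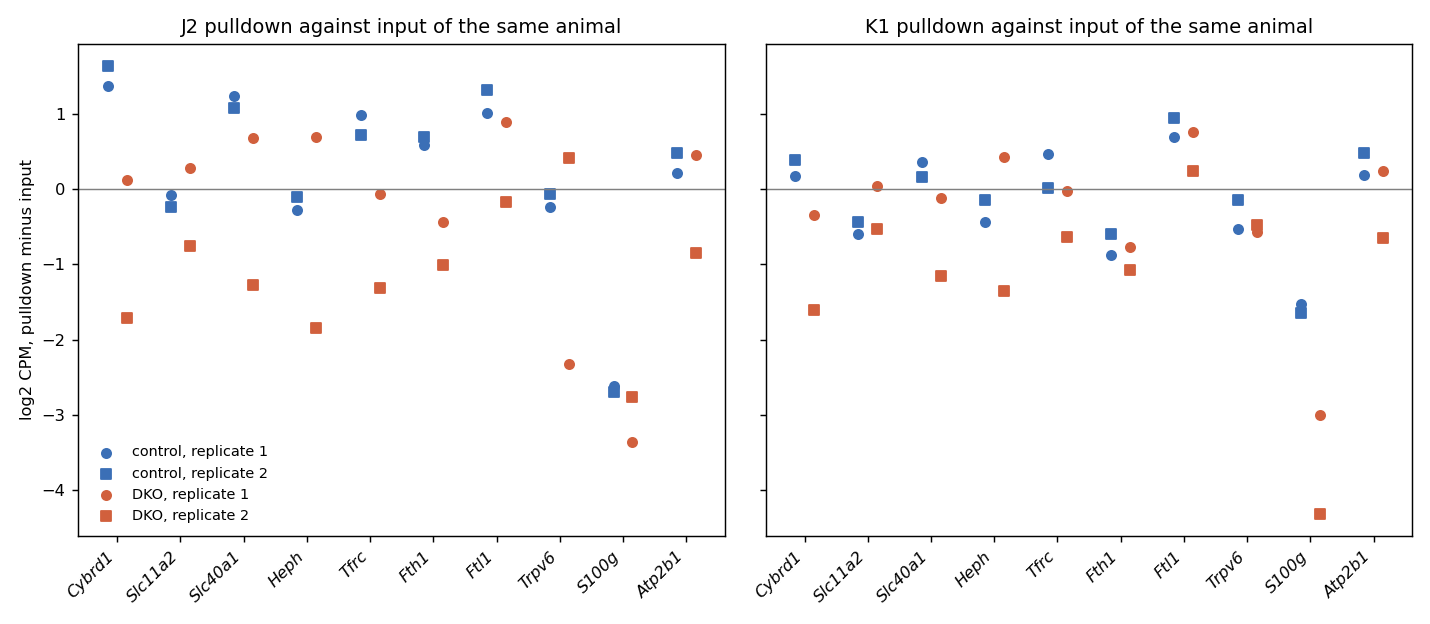
Log2 CPM in the J2 (left) and K1 (right) pulldown minus log2 CPM in the input of the same animal (vertical axis) for each of the 10 genes (horizontal axis). Circles are replicate 1 and squares replicate 2, in blue for control and orange for DKO, and the line at 0 marks equal levels. S100g lies under 0 in all 8 animal values, and the DKO pairs are more spread than the control pairs for most genes.

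In control epithelium S100g was the 1 gene of the 10 called with J2, against 29.8% of all genes (14.6% lower). The spread in this fit was shared with the DKO libraries, whose J2 pair correlated at 0.901, against 0.99 for the control J2 pair. The lack of a call here therefore does not show a lack of enrichment in control. Cybrd1 had a log2 J2 enrichment of 1.56 ± 0.51 SE (adjusted p = 0.0513, edgeR), with 1.38 and 1.64 in the 2 animals, and was called with the animal as a block (log2 1.53, adjusted p = 0.0272). Ftl1 at 1.18 (adjusted p = 0.0699), Slc40a1 at 1.18 (0.131), Tfrc at 0.86 (0.156) and Fth1 at 0.65 (0.411) also had positive values in both animals without being called. Atp2b1 was likewise positive in both animals, at 0.22 and 0.48, and Slc11a2 negative in both, at -0.08 and -0.23. With K1 in control, Ftl1 was higher than in input (log2 0.84 ± 0.27 SE, adjusted p = 0.032) and S100g lower, so that 2 of the 10 were called, against 39.8% of all genes (19.7% higher, 20.1% lower). The Ftl1 call was lost with DESeq2 size factors (adjusted p = 0.0588, edgeR). It was also lost without control replicate 1 (log2 0.96) or control replicate 2 (log2 0.71), where calls over all genes fell as well. Fth1 had a K1 value of the other sign (log2 -0.72, adjusted p = 0.112), with -0.87 and -0.59 in the 2 animals. With the animal block Slc11a2 was also called in control K1 (log2 -0.52, adjusted p = 0.0467).

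In DKO epithelium S100g was the 1 gene called with each antibody, against 25.7% of all genes for J2 (13.4% lower) and 35.6% for K1 (21% lower). With the animal block Fth1 was called as well in DKO K1 (log2 -0.93, adjusted p = 0.0377), with -0.77 and -1.08 in the 2 animals. The iron genes had less uniform values here than in control. Slc40a1 was at 0.68 and -1.28 with J2, Heph at 0.70 and -1.84, and Tfrc at -0.06 and -1.31. In each case the second DKO animal, whose pulldowns held the fewest counts, had the lower value. The DKO pulldown counts of Trpv6, 3 or fewer per library, give no usable enrichment: the ratio of input over pulldown was 1.65 with an interval of 0.481 to 8.73 for J2 and 1.6 with an interval of 0.467 to 8.47 for K1.

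The difference of enrichment between DKO and control was the comparison that the study's design names, and it was called for 0 of the 10 genes with either antibody (edgeR), against 2.71% of all 15923 genes for J2 and 5.47% of all 15908 genes for K1. At an unadjusted p under 0.05, 1 gene passed with each antibody, and DESeq2 called 1 with each. S100g had the lowest adjusted p with K1 (log2 -1.73 ± 0.47 SE, adjusted p = 0.0592). With the animal as a block it was called (log2 -1.82 ± 0.41 SE, adjusted p = 0.0106), and it was called with DESeq2 (0.04) and without TMM scaling (0.0268). Both DKO animals lay under both controls for this gene, at -3.01 and -4.32 against -1.52 and -1.65, and its DKO K1 values rest on 15 and 2 counts. With J2 its difference was log2 -0.49 ± 0.38 SE (adjusted p = 0.449).

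Enrichment was lower in both DKO animals than in either control for 6 of the 10 genes with J2 (33.1% of all genes) and for 4 with K1 (38.3%). Among the iron genes, Cybrd1, Slc40a1 and Tfrc were so with both antibodies, without passing the test. By animal, the log2 J2 enrichment of Cybrd1 went from 1.38 and 1.64 (control) to 0.13 and -1.71 (DKO). Tfrc stood at 0.99 and 0.72 against -0.06 and -1.31, and Slc40a1 at 1.24 and 1.09 against 0.68 and -1.28. The J2 differences of Cybrd1, Slc40a1 and Tfrc were, in that order, log2 -1.96 ± 0.78 SE (adjusted p = 0.163, edgeR), -1.19 ± 0.75 (0.347) and -1.36 ± 0.60 (0.195). Their K1 differences were -0.97 ± 0.60 (0.366), -0.82 ± 0.44 (0.295) and -0.52 ± 0.38 (0.449). Fth1, at 0.59 and 0.70 in the control animals and -0.44 and -1.01 in the DKO animals with J2, had a difference of -1.31 ± 0.79 (0.323) and -0.18 ± 0.47 with K1 (0.851). For Slc11a2, Heph and Atp2b1 the animals of the 2 genotypes overlapped with both antibodies.

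By Pearson correlation of log2 CPM over the 12 libraries, the genes most like Trpv6, which changed most in input, were Mcoln2 (r = 0.978), Acvr1c (0.971) and Tsku (0.971), among 9378 genes with a mean of at least 50 counts. Those most like Ftl1, which changed least, were Wdtc1 (0.977), Osbp (0.977) and Mknk2 (0.974). The 12 points share animals, library kind and depth, so these values describe the libraries only.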

How the data were processed

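The values deposited by the authors are whole-number counts of reads per gene, 1 file per library, made without strand as the labels' file descriptions say. Per the labels' protocols, random hexamers primed the libraries, ribosomal RNA was removed and molecular identifiers were added. Per the submitters' processing notes, STAR 2.7.10b, SAMtools 1.17, UMI-tools 1.1.4 and HTSeq 2.0.2 were among the tools and mm10 and GRCm38.p4 were named as builds. How the identifiers were used is not given in the sources used here, and if they were not, amplified copies count as separate reads. Rows that name no gene (reads outside genes, ambiguous or aligned to several places, 6.8 to 27.0%, 3.7 to 6.1% and 5.5 to 46.7% of the listed reads) were left out.

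Identifiers matched GENCODE M21 (GRCm38) for 48144 of 48526 rows without the version. Exon lengths, hairpins and coordinates came from that annotation, and copies from blastn 2.17.0 (97% identity over 100 bases). The test was edgeR's quasi-likelihood test (edgeR 4.0.16, R 4.3.3) with TMM scaling on the deposited counts (filterByExpr with a minimum of 10 counts, Benjamini-Hochberg adjustment over all genes tested, threshold 0.05), in 3 fits of 4 libraries for DKO against control and fits of 8 for enrichment. The scripts were tested on simulated data. Log2 CPM used a prior count of 2. Alternatives were DESeq2 1.42.0, its size factors in edgeR, no TMM, no filter, a replicate block and leaving out each animal.

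The 10 genes, the lists and the rule for naming genes were chosen with earlier results of these data known. From each pathway list up to 3 genes per direction were named, with the largest called input changes and a mean of at least 50 counts. Replicates were different libraries (chi-square per degree of freedom of 10.42 or higher between replicates). The labels say only that they are replicates, and the file descriptions carry 4 animal codes, each on an input, a J2 and a K1 library. Deviations of pulldown and input of one animal correlated at 0.208 to 0.296, so the animal pairs them. The main enrichment fits and differences of enrichment did not use this pairing, which entered only with the animal as block. With 2 animals a group, p-values of DKO against control cover the spread between these animals. Those of the main enrichment fits cover a spread pooled over libraries of both genotypes and both kinds.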

Additional observations from a re-analysis of the deposited data

How the results depend on the processing

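Depth limits the DKO pulldowns, where Trpv6, S100g and Cybrd1 had at most 29 counts per library. Beside the main counts of called genes among the 10, DESeq2 called 6 in input, where the main fit called 8, and 6 in J2. It called 3 for J2 and 3 for K1 against input in control, 2 for K1 against input in DKO and 1 in each difference of enrichment. DESeq2 size factors gave 1 in J2 and 1 for K1 against input in control. Over all genes they gave 1581 and 6214 calls there, beside 1606 and 6324 in the main fits. Without TMM 2 and 3 were called for J2 against input in control and DKO, 4 and 3 for K1, and 1 in the K1 difference. Over all genes these fits called, in that order, 4292, 3825, 5965, 6234 and 1299, beside 4747, 4087, 6324, 5659 and 870 in the main fits. Without the filter 5 were called in J2, 4 for J2 against input in control, 2 for K1 against input in DKO, 2 in the J2 difference and 1 in the K1 difference. Calls over all genes also rose, as given below, in J2 and the J2 difference with DESeq2, and in J2 and both differences without the filter. For pulldown against input in those fits they are not given here, so these counts of the 10 stand without a background.

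The replicate block called 5 in J2, where the shared number did not pair the samples (correlations of 0.026, -0.088 and -0.097 in input, J2 and K1), left 8 in input, and left 5 in K1 with Cybrd1 in place of Fth1 (adjusted p = 0.0287 and 0.109). With the animal as block, 2 were called for J2 against input in control, 2 for K1 against input in DKO and 1 in the K1 difference, and beyond these and Slc11a2 in control K1 the animal block changed no call of the 10 genes. Under the blocks, values that changed sign were Slc11a2 in K1 (-0.02) and in the J2 difference (-0.07), Heph in J2 against input in DKO (-0.55), the J2 difference (-0.36) and the K1 difference (-0.16), and Atp2b1 in J2 against input in DKO (-0.19), none of them called.

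Leaving out 1 animal gave 5 to 7 called genes in input, 0 to 10 in J2, 1 to 7 in K1, 0 to 8 for J2 against input in control, 1 to 7 in DKO, 0 to 5 for K1 against input in control, 1 to 5 in DKO, 0 to 8 in the J2 difference and 0 to 4 in the K1 difference. A fit without 1 animal leaves a group with 1 library, assumed to vary like the other groups. Signs changed for Ftl1 in input (-0.10 to 0.09), for Heph in J2 (-1.32 to 1.52) and K1 (-0.56 to 1.45), for Slc11a2 in J2 (-1.22 to 0.15) and K1 (-0.43 to 0.37), and for Ftl1 in K1 (-0.49 to 0.14). They changed for J2 against input in DKO in Heph (-1.98 to 0.71), Atp2b1 (-0.99 to 0.47), Ftl1 (-0.32 to 0.91), Trpv6 (-6.13 to 0.37), Cybrd1 (-1.96 to 0.14), Slc11a2 (-0.91 to 0.30) and Slc40a1 (-1.43 to 0.69). They changed for K1 against input in DKO in Slc11a2 (-0.61 to 0.04), Heph (-1.44 to 0.42) and Atp2b1 (-0.73 to 0.25). The J2 difference changed sign in Slc11a2 (-0.63 to 0.44), Heph (-1.66 to 0.90), Trpv6 (-5.99 to 0.65) and Atp2b1 (-1.21 to 0.11), and the K1 difference in Slc11a2 (-0.08 to 0.54) and Heph (-1.14 to 0.70).

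Other sign changes were all of uncalled values: Ftl1 in input (0.01 with DESeq2 and with its size factors), Slc11a2 in K1 (-0.37 without TMM, -0.17 without the filter), Atp2b1 for J2 against input in control (-0.03 without TMM), and, for J2 against input in DKO, Heph and Atp2b1 (-0.04 and -0.05 with DESeq2 and with its size factors, -0.60 and -0.49 without TMM, -0.20 each without the filter). In the J2 difference Slc11a2 and Heph turned to -0.03 and -0.02 without TMM and to -0.23 and -0.07 without the filter, and in the K1 difference Heph turned to -0.01 without TMM. The cause of these changes was not tested.

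Without TMM the median log2 fold change over all genes moved from 0.00 to -0.13 in input and from -0.02 to -0.39 in K1, and from -0.07 to -0.44 and 0.10 to -0.26 for J2 against input in control and DKO, from 0.00 to -0.23 and -0.14 to -0.48 for K1. In the K1 difference it was -0.20, -0.30 without TMM and -0.04 with DESeq2 size factors. The share of all calls that were higher moved without TMM from 52.4% to 42.1% in input, 49.4% to 32.7% in J2, 48.6% to 27.4% in K1, 51.1% to 34.6% and 47.6% to 21.1% for J2 against input, 49.6% to 35.9% and 41.1% to 22.3% for K1, and 28.5% to 10.5% and 25.1% to 13.2% in the J2 and K1 differences (39.2% with size factors in the latter). Of all genes, 1606 were called in J2, 2884 with DESeq2 and 4273 without the filter. The J2 difference had 432, and 1980, 669, 2453 and 0 with DESeq2, without TMM, without the filter and with the animal block. The K1 difference had 870, and 523, 1763 and 1912 with size factors, without the filter and with the block. Without 1 animal the counts over all genes ran from 3615 to 6226 in input, 177 to 8635 in J2 and 1149 to 5819 in K1. For J2 against input they ran from 0 to 10139 in control and 337 to 7791 in DKO, for K1 from 281 to 9189 and 3005 to 5970, and in the J2 and K1 differences from 0 to 6990 and 0 to 3802, so the wide ranges of called members stood beside wide ranges over all genes.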
